A study of Rattus norvegicus with 9 samples.

Results

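Cultured rat aortic vascular smooth muscle cells that had been de-differentiated in 2 ways were compared by their miRNAs. The comparison takes the 3 libraries of H3K4me2-edited cells against the 3 libraries of PDGF-BB cells, 6 of the 9 libraries of the series, and every mature miRNA of the count table that passed a filter for low counts, 304 of 762. A further 198 had a count and were not tested. The edited cells had been transduced with a lentivirus that carries a sequence named Myocardin-F-LSD1. The PDGF-BB cells had received platelet-derived growth factor BB at 30 ng/ml for 24 h. The 3 remaining libraries are differentiated cells with no treatment, which entered the model and are given beside the results. The labels name no animal, strain or age. Their treatment text, 24 h without serum and then PDGF-BB, is the same for all 3 groups, while the treatment entry of each edited library names the lentivirus alone. Whether edited and differentiated cells were also kept without serum is not stated separately. The promoter of the lentivirus, the time after transduction and any selection of transduced cells are not stated. Libraries of cells with a lentivirus lacking the construct were not analysed here, so that transduction and construct cannot be told apart. Nothing says that replicates are separate cultures, so the p-values may measure technical spread only.

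A smooth muscle cell of the vessel wall can leave its contractile state and proliferate, migrate and secrete matrix. PDGF-BB, released at sites of injury, drives that switch through its receptor kinase. Myocardin, a co-activator of serum response factor, holds contractile genes active, and dimethylation of lysine 4 of histone H3 marks those genes in the smooth muscle lineage. LSD1 removes that mark. A miRNA pairs with messenger RNAs mainly through its seed, bases 2 to 8 of the mature strand, and lowers their translation and stability. A hairpin precursor gives a 5p and a 3p arm, of which usually 1 is much more abundant. Neighbouring hairpins are often cut from the same transcript.

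The mature sequences of the miRNAs on which the comparison turns are given 5′ to 3′ from RefSeq (GRCr8), with the seed in capitals. The first pair comes from neighbouring hairpins of smooth muscle, has different seeds and fell.
miR-143-3p: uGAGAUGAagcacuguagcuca
miR-145-5p: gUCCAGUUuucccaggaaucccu
The next 4 fell together as pairs that share a seed, miR-221 with miR-222 and miR-132 with miR-212.
miR-221-3p: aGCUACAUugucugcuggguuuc
miR-222-3p: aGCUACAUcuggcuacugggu
miR-132-3p: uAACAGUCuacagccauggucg
miR-212-3p: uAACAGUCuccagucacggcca
A further 4 are near-identical pairs whose members did not move together. miR-146a-5p and miR-146b-5p share the seed and differ at positions 18 and 21 of the 22 that can be compared, while miR-27a-3p and miR-27b-3p differ at position 19 of 21, counted from 1 at the 5′ end.
miR-146a-5p: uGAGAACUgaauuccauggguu
miR-146b-5p: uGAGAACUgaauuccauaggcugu
miR-27a-3p: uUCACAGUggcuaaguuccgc
miR-27b-3p: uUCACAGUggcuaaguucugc
The last 5 are among the largest rises and come from a pair of hairpin clusters, miR-183 with miR-96 and miR-182, and miR-296 with miR-298.
miR-183-5p: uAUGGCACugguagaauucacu
miR-96-5p: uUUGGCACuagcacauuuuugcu
miR-182: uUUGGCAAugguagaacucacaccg
miR-296-5p: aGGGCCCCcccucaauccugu
miR-298-5p: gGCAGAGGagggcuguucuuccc
On GRCr8 the arms of miR-143 and miR-145 lie at chr18:57369997-57371428 on the minus strand, those of miR-221 and miR-222 at chrX:6022642-6023268 on the plus strand, those of the miR-183 cluster at chr4:59752249-59756127 on the minus strand and those of miR-296 and miR-298 at chr3:183470079-183470593 on the minus strand. The counts themselves were made on Rnor_6.0, per the submitters' processing notes, and no coordinate was carried between the builds.

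Edited and PDGF-BB cells differed in 179 of 304 tested miRNAs, or 58.9%, by the edgeR quasi-likelihood test at an adjusted p of 0.05. Of these 85 (28.0%) were higher and 94 (30.9%) lower in edited cells. These shares of all tested miRNAs stand beside every count of risen or fallen arms of a family or list below. Changes of at least 2-fold were found for 43 that rose and 42 that fell, and of at least 4-fold for 13 and 20. The 3 edited values and the 3 PDGF-BB values did not overlap for 183 miRNAs (60.2%), among them 166 of the 179 called. Levels below are TMM-scaled CPM (counts divided by the library's effective size), in the order of replicates 1, 2 and 3, and changes are log2 fold changes of edited over PDGF-BB ± SE with the Benjamini-Hochberg adjusted p of that test.

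The split into rises and falls depends on the scaling. The TMM factors of PDGF-BB libraries were 0.912 to 1.03 and those of edited libraries 1.15 to 1.29, and the median change of the 304 miRNAs was −0.022. With library totals in place of TMM the median shift was 0.32 towards edited cells and the split became 124 higher and 52 lower, with 42 falls no longer passing and no call turning to the other direction. Below, a named fall that passed with TMM factors and not with library totals is given with its value under both. The 12 most abundant miRNAs, named below, held 71.5% to 72.7% of all counts with PDGF-BB and 60.3% to 68.3% with editing. Calls were found at every level of abundance, for 54.1% of the 61 miRNAs under 10 CPM and 57.9% of the 19 over 10000 CPM.

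Depth was 1982051 to 3568888 counts with PDGF-BB and 3149262 to 11392178 counts with editing. Edited replicate 1 stood apart from edited replicates 2 and 3, at 7.95 on the first principal component of log2 CPM against 15.95 and 16.49, while PDGF-BB libraries lay between −6.79 and −4.49 and differentiated libraries between −8.73 and −6.37. The count of calls was 198 without edited replicate 1, 147 without edited replicate 2 and 145 without edited replicate 3.

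**Figure D1:**
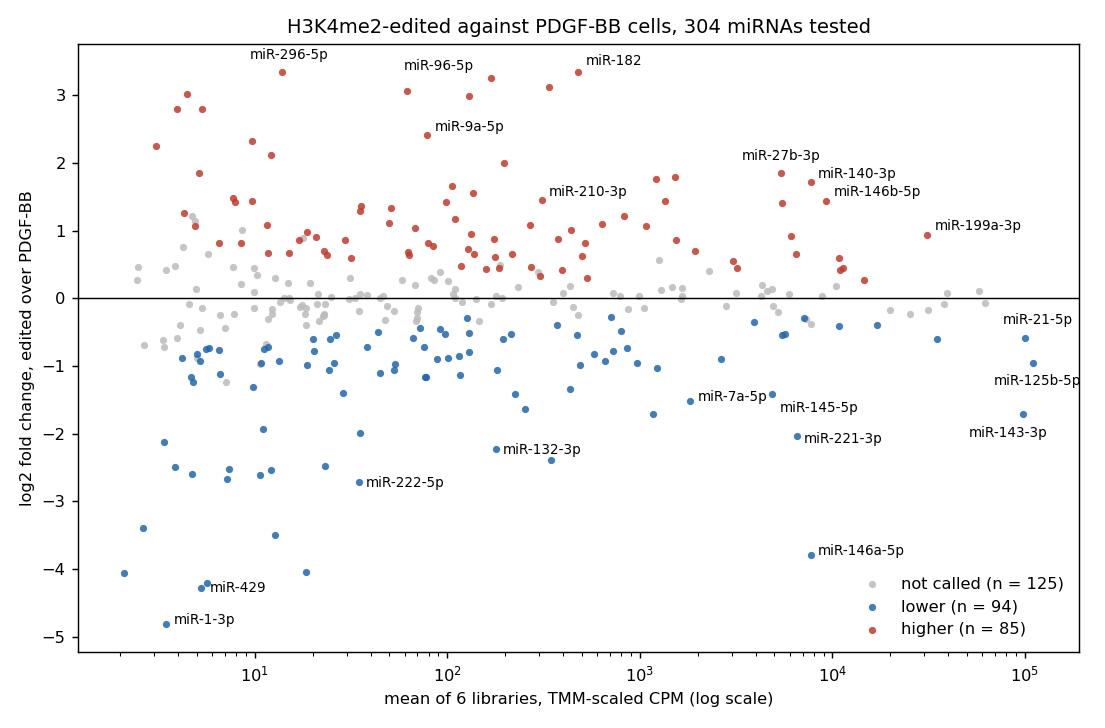
Each point is 1 of 304 tested miRNAs, with its mean CPM over the 3 PDGF-BB and 3 edited libraries on a log axis and its log2 fold change of edited over PDGF-BB cells on the vertical axis. Red points (85) rose and blue points (94) fell at an edgeR adjusted p of 0.05, and grey points (125) did not pass.

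The contractile miRNAs were lower in edited than in PDGF-BB cells. Of 7 tested arms of the muscle list, whose members are driven by serum response factor and myocardin or belong to striated muscle, 5 fell and 1 rose, with a median change of −1.41 against −0.022 over all tested miRNAs. miR-143-3p, which targets regulators of actin dynamics and favours the contractile state, was at 160482, 161328 and 125179.7 CPM in PDGF-BB and 59172, 43788 and 34169.5 CPM in edited cells. The groups do not overlap, and the change was −1.70 ± 0.19 (adjusted p = 5.7e-05), 3.26-fold lower. It took 18.3% to 20.4% of all counts in differentiated libraries, 12.9% to 15.1% with PDGF-BB and 3.93% to 6.79% with editing. In a bulk library fewer cells with a miRNA and less of it per cell cannot be told apart.

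miR-145-5p, which acts with miR-143, stood at 8067, 7179 and 5957 CPM in PDGF-BB and 2979.5, 2848 and 2164 in edited cells, a change of −1.41 ± 0.14 (adjusted p = 3.9e-05). The less abundant arms fell as well, with changes of −1.70 ± 0.16 for miR-143-5p and −0.99 ± 0.12 for miR-145-3p. Within a library the ratio of miR-143-3p to miR-145-5p was 19.9, 22.5 and 21.01 in PDGF-BB and 19.9, 15.4 and 15.8 in edited cells. Edited replicates 2 and 3 are lower than all PDGF-BB libraries in this ratio and edited replicate 1 is level with PDGF-BB replicate 1. Against differentiated cells the change of miR-143-3p was −0.56 ± 0.18 with PDGF-BB (adjusted p = 0.0928, not past the threshold) and −2.27 ± 0.19 with editing, and these comparisons share libraries with the one described here.

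miR-1-3p, a miRNA of striated and smooth muscle, was at 7.74, 7.25 and 4.63 CPM in PDGF-BB cells and nearly absent from edited cells, with 4, 1 and 0 counts in the 3 edited libraries against 14, 18 and 17 in the PDGF-BB libraries. Its fitted change of −4.82 ± 0.73 (adjusted p = 4.5e-04) was the largest fall of the comparison and rests on those few counts. miR-499-5p, which is hosted in a myosin heavy chain gene, went the other way, from 50.9, 47.9 and 45.2 to 69.5, 97.01 and 62.98 CPM (0.68 ± 0.18, adjusted p = 0.0105). miR-206-3p, a skeletal muscle miRNA, spread widely within both groups, at 28.8, 8.46 and 4.36 CPM with PDGF-BB and 19.4, 4.98 and 2.599 CPM with editing, and did not pass (−0.68 ± 0.97). The list has 19 arms in the count table, of which 12 had a count and 7 passed the filter.

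Of 8 tested arms in the clusters of miR-221 with miR-222 and miR-132 with miR-212, all 8 fell. miR-221 and miR-222, which target the cell-cycle inhibitor p27Kip1, are induced by PDGF-BB in smooth muscle. miR-221-3p was at 11583, 10181 and 9710.3 CPM in PDGF-BB and 2774, 2332 and 2619 CPM in edited cells, a change of −2.03 ± 0.16 (adjusted p = 1.4e-05), with differentiated cells between them at 6633, 4325 and 4662. miR-222-3p changed from 667, 591 and 482 to 123, 112 and 99.01 CPM (−2.38 ± 0.20). The groups are apart in both cases and edited cells lie below the differentiated ones.

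The other strands of that cluster fell too. miR-222-5p went from 48.1, 58.4 and 73.2 to 12.7, 6.34 and 9.69 CPM (−2.71 ± 0.30, adjusted p = 5.9e-05), and miR-221-5p changed by −1.98 ± 0.24. Unlike for miR-222-3p, the edited values of miR-222-5p overlap those of differentiated cells, at 7.94, 14.8 and 8.66 CPM. miR-221-3p outnumbered miR-222-3p 17.4, 17.2 and 20.1 times in PDGF-BB libraries and 22.6, 20.9 and 26.4 times in edited libraries.

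miR-132 and miR-212, transcribed together under CREB, gave smaller counts and an uneven edited group. miR-132-3p was at 304, 294 and 279 CPM in PDGF-BB and 118, 36.9 and 38.3 in edited cells (−2.22 ± 0.41, adjusted p = 0.0014), and miR-212-3p at 16.6, 16.9 and 20.7 CPM with PDGF-BB and 5.81, 2.05 and 2.24 CPM with editing (−2.62 ± 0.36). Edited replicate 1 held about 3 times the miR-132-3p of edited replicates 2 and 3 and still lay below every PDGF-BB library. The 5p arms followed, with changes of −2.48 ± 0.49 for miR-132-5p and −2.66 ± 0.41 for miR-212-5p, and the 4 calls held whichever of the 9 libraries was left out.

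PDGF-BB cells differed from differentiated cells in 31 miRNAs (10.2%), 22 of them (7.24%) higher with PDGF-BB, in a comparison that shares its PDGF-BB libraries with this one, and edited cells differed from differentiated cells in 180 (59.2%). The 31 calls became 3 to 53 on leaving out 1 library. Of those 22, 13 were lower and 2 higher in edited than in PDGF-BB cells and 7 did not pass, a description that rests on shared PDGF-BB libraries. The 13 include miR-7a-5p, miR-449a-5p and miR-129-5p. miR-7a-5p, which targets transcripts of growth factor signalling, was very even within groups, at 2634, 2613 and 2861 CPM in PDGF-BB and 992, 899 and 936 CPM in edited cells (−1.52 ± 0.095, adjusted p = 3.2e-06). With differentiated cells at 1129, 1211 and 1284 CPM, its change was 1.16 ± 0.094 with PDGF-BB and −0.36 ± 0.093 with editing. It was the 1 of 2 tested miR-7 arms that fell. miR-449a-5p, which shares the seed of the p53-regulated miR-34 family, changed from 324, 350.5 and 305 to 154, 113 and 102 CPM (−1.41 ± 0.17). miR-129-5p, a miRNA of neurons, fell from 8.296, 6.85 and 9.26 to 1.38, 1.704 and 0.827 CPM (−2.59 ± 0.35, adjusted p = 2.3e-04), near the level of differentiated cells at 0.662, 2.28 and 1.62.

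**Figure D2:**
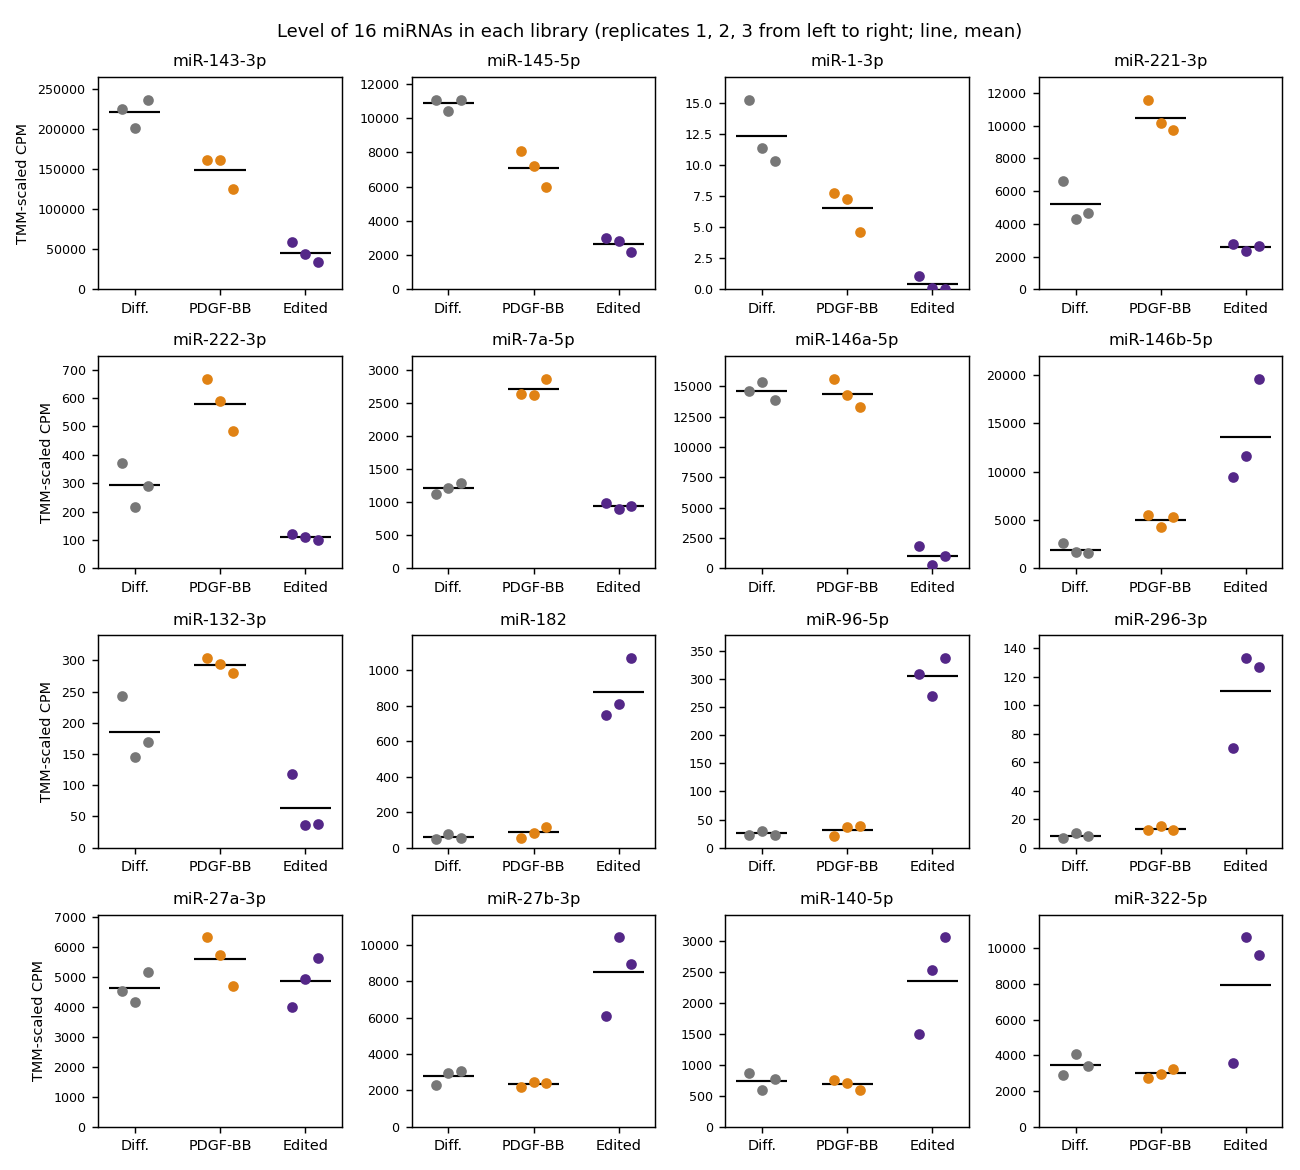
Each panel shows 1 miRNA, with its TMM-scaled CPM on a linear axis from 0 in the 3 libraries of differentiated, PDGF-BB and edited cells, and the group mean as a line. miR-1-3p, miR-143-3p and miR-145-5p step down from differentiated over PDGF-BB to edited cells, and miR-221-3p, miR-222-3p and miR-7a-5p peak in PDGF-BB cells. Edited replicate 1 is the edited library nearest to the PDGF-BB mean in every panel except those of miR-96-5p and miR-27a-3p.

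The miRNAs linked to NF-kappaB divided. Of 8 tested arms 4 rose and 3 fell, and the median of 0.86 lies between the rises and the falls. miR-146a-5p and miR-146b-5p, which lie on chromosomes 10 and 1 and both target the signalling proteins Traf6 and Irak1, had opposite changes. miR-146a-5p was at 15586, 14285 and 13301 CPM in PDGF-BB and 1825, 296 and 1010.0 CPM in edited cells (−3.79 ± 0.52, adjusted p = 2.3e-04). miR-146b-5p was at 5504, 4282 and 5322 CPM with PDGF-BB and 9488, 11657 and 19594 CPM with editing (1.43 ± 0.28, adjusted p = 0.00176). Neither pair of groups overlaps.

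Within single libraries, where no scaling enters, miR-146b-5p had 0.353, 0.2997 and 0.4002 counts per count of miR-146a-5p with PDGF-BB and 5.199, 39.4 and 19.4 with editing. All 3 ratios are under 1 with PDGF-BB and above 5 with editing, and edited replicate 1 has the lowest of the edited ratios. The other strands, whose seeds differ from each other, went with their 5p arms, with changes of −4.04 ± 0.53 for miR-146a-3p and 1.66 ± 0.27 for miR-146b-3p. How the authors' counting divided reads between the near-identical 5p arms is not stated, and reads of one could be counted for the other. Differentiated cells, at 14609, 15372 and 13828 CPM of miR-146a-5p and 2646, 1661 and 1558 CPM of miR-146b-5p, had the order of PDGF-BB cells.

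miR-155-5p, another NF-kappaB target, fell from 837, 965 and 795 to 507, 463 and 404 CPM (−0.92 ± 0.12). miR-147 did not pass (0.30 ± 0.38), with 17.1, 12.5 and 5.72 CPM in PDGF-BB and 9.96, 14.9 and 15.95 CPM in edited cells. miR-9a-5p, a miRNA of neural progenitors that NF-kappaB can also induce, rose from 26.5, 26.99 and 21.8 to 134, 135 and 129 CPM (2.41 ± 0.14, adjusted p = 3.2e-06), and its 3p arm rose too (1.43 ± 0.26). The change of miR-9a-5p and that of miR-7a-5p had the smallest adjusted p among the 304 miRNAs.

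All 5 tested arms of the injury miRNAs were lower in edited cells, and 3 passed without PDGF-BB replicate 1 or without PDGF-BB replicate 2. miR-21-5p, an abundant miRNA of the injured vessel wall, was at 131034, 120355 and 107352 CPM in PDGF-BB and 97896, 64047 and 76422 CPM in edited cells, a change of −0.59 ± 0.15 (adjusted p = 0.00842). It was −0.28 with library totals, and it did not pass without PDGF-BB replicate 1 or without PDGF-BB replicate 2. miR-31a-5p, which promotes smooth muscle proliferation in the rat, went from 43952, 42502 and 39346 to 28335, 26179 and 28107 CPM (−0.61 ± 0.082, and −0.29 with library totals). miR-21-3p fell as well (−0.83 ± 0.23), but not without PDGF-BB replicate 1, PDGF-BB replicate 2 or edited replicate 2. miR-31a-3p fell (−0.55 ± 0.12), but did not pass with library totals (−0.23). These miRNAs are known for their induction in the injured artery. Their summed level was 177290, 165190 and 148544 CPM with PDGF-BB and 127585, 91359 and 105807 CPM with editing. Differentiated cells, at 197258, 161772 and 178880 CPM, overlapped PDGF-BB cells in this sum and lay above edited cells.

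The largest rises in edited cells came from a pair of clusters, and each of their 7 tested arms rose. The hairpins of the miR-183 cluster are cut from a shared transcript and are best known from sensory organs. miR-182 was at 55.3, 82.6 and 119 CPM with PDGF-BB and 745, 809 and 1066 CPM with editing, 10.1-fold higher (3.33 ± 0.29, adjusted p = 1.8e-05). miR-96-5p went from 19.9, 35.9 and 38.1 to 309, 269.8 and 337 CPM, 9.56-fold higher (3.26 ± 0.23, adjusted p = 6.5e-06). miR-183-5p went from 43.7, 61.6 and 102 to 617, 540.4 and 671 CPM, 8.69-fold higher (3.12 ± 0.29, adjusted p = 2.7e-05). The lowest edited value of each is more than 5 times its highest PDGF-BB value, and edited replicate 1 lies close to edited replicates 2 and 3. Differentiated cells were near PDGF-BB cells, at 47.7, 75.4 and 53.02 CPM of miR-182.

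miR-296 and miR-298, which in the mouse lie at the imprinted Gnas locus, rose together with less even edited libraries. miR-298-5p went from 31.5, 22.6 and 32.4 to 164, 275 and 249 CPM (2.99 ± 0.23, adjusted p = 1.0e-05). miR-296-3p went from 12.2, 14.9 and 12.5 to 70.3, 133 and 127 CPM (3.06 ± 0.27). Its rarer partner miR-296-5p, the largest rise by fold, went from 2.77, 2.01 and 2.72 to 12.2, 33.7 and 29.5 CPM (3.35 ± 0.45, adjusted p = 2.2e-04). The edited values do not overlap the PDGF-BB values for any of these arms. miR-298-3p had 1, 3 and 4 counts in the PDGF-BB libraries and 15, 157 and 76 in the edited ones, and its change was 3.02 ± 0.55. With all libraries thinned to the smallest total it no longer passed the low-count filter. Edited replicate 1 is the lowest of the 3 edited libraries for each of the 4 arms.

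miRNAs known from cartilage and from pigment cells rose as well. Of 7 tested arms of miR-140, miR-455, miR-204 and miR-211, 6 rose, with a median of 1.21. miR-140-3p, the main arm of the cartilage miRNA hosted in Wwp2, went from 3923, 3716 and 3128 to 6176, 13361 and 15924 CPM (1.72 ± 0.28), and miR-140-5p from 757, 705 and 591 to 1491, 2528 and 3053 CPM (1.79 ± 0.25). Edited replicate 1 is the lowest edited library for both arms and still lies above all PDGF-BB libraries. miR-455-3p, also of cartilage, rose from 8.85, 7.65 and 6.26 to 16.1, 14.8 and 16.3 CPM (1.07 ± 0.27), a call lost after thinning. miR-204-5p was at 609, 401 and 478 CPM in PDGF-BB and 513, 1319.6 and 1616 in edited cells (1.21 ± 0.39, adjusted p = 0.0215). Here edited replicate 1 lies inside the PDGF-BB range, and the call was lost on leaving out PDGF-BB replicate 2 or 3 or edited replicate 2 or 3. miR-211-5p, which differs from miR-204-5p by 1 of 22 bases and shares its seed, had 1, 4 and 3 counts in PDGF-BB and 16, 115 and 72 in edited libraries (2.80 ± 0.44) and fell under the filter after thinning.

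Single miRNAs with large rises included miR-210-3p, which hypoxia-inducible factor activates, from 127, 184 and 185 to 335, 607 and 417 CPM (1.45 ± 0.25, adjusted p = 9.6e-04). miR-224-5p rose from 94.02, 78.96 and 64.3 to 534, 186 and 223 CPM (1.99 ± 0.36), and here edited replicate 1 is the highest library. miR-190a-3p had 0, 4 and 5 counts in PDGF-BB and 10, 81 and 61 in edited libraries (2.25 ± 0.61), and fell under the filter after thinning or without edited replicate 2 or 3. Its more abundant arm miR-190a-5p, singled out after its values were seen, was at 449, 559.6 and 644 CPM with PDGF-BB and 1211, 2034 and 2374 CPM with editing (1.76 ± 0.24).

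The miR-200 family, which represses the mesenchymal regulators Zeb1 and Zeb2 and marks epithelium, split by its chromosomal clusters. miR-200a-3p, miR-200b-3p and miR-429 come from 1 cluster, and all 3 fell. miR-200a-3p was at 23.2, 28.2 and 18.2 CPM with PDGF-BB and 4.15, 1.500 and 1.54 CPM with editing (−3.49 ± 0.36, adjusted p = 3.9e-05). miR-429 went from 11.6, 8.86 and 8.98 to 1.38, 0.341 and 0.236 CPM (−4.28 ± 0.44), and miR-200b-3p from 3.32, 7.65 and 3.27 to 1.11, 0.409 and 0.118 CPM (−3.40 ± 0.62). The edited values of these 3 miRNAs rest on few counts, 15, 22 and 13 for the most abundant, miR-200a-3p. miR-200c-3p and miR-141-3p, at chr4:159209540-159209989 on the minus strand of GRCr8, rose, with 2, 4 and 5 counts of miR-200c-3p in the PDGF-BB libraries and 15, 203 and 84 in the edited ones.

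These are low levels in both states. The changes of miR-200c-3p and miR-141-3p were 2.80 ± 0.54 (adjusted p = 0.00158) and 2.32 ± 0.44 (adjusted p = 0.00155), and the former fell under the filter after thinning. Counted within libraries, miR-200c and miR-141 together had 0.08696, 0.108 and 0.179 counts per count of miR-200a, miR-200b and miR-429 with PDGF-BB and 2.04, 16.5 and 13.7 with editing. Differentiated cells had 0.0429, 0.0615 and 0.0925, also with the second set ahead.

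The paralogous miR-23/27/24 clusters also separated, 5 of 10 tested arms rising and 1 falling. Every tested arm of the b cluster that is specific to it rose. miR-27b-3p, which targets PPARgamma, was at 2171, 2479.7 and 2401 CPM in PDGF-BB and 6110.1, 10422 and 8950.1 CPM in edited cells (1.85 ± 0.19, adjusted p = 3.9e-05), and miR-23b-3p at 693, 767 and 721 CPM with PDGF-BB and 1629, 2416 and 1881 CPM with editing (1.44 ± 0.14). The rarer arms rose too, miR-23b-5p with a change of 2.11 ± 0.39 and miR-27b-5p with 1.49 ± 0.34. From the a cluster, miR-27a-3p (−0.20 ± 0.15) and miR-23a-3p (0.027 ± 0.094) did not pass, and miR-27a-5p fell (−0.45 ± 0.14), though not with library totals (−0.14) or without PDGF-BB replicate 2 or 3 or edited replicate 1 or 2. With library totals miR-23a-3p (0.35) rose as well, and the list had 7 rises and 0 falls among its 10 arms.

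miR-27b-3p had 0.344, 0.432 and 0.511 counts per count of miR-27a-3p in PDGF-BB libraries and 1.53, 2.12 and 1.59 in edited libraries. For miR-23b-3p over miR-23a-3p, which also differ at position 19 of 21, the ratios were 0.0743, 0.0853 and 0.0896 with PDGF-BB and 0.197, 0.263 and 0.2000 with editing. The groups are apart in both ratios. miR-24-3p, made by both clusters, rose (0.42 ± 0.097).

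**Figure D3:**
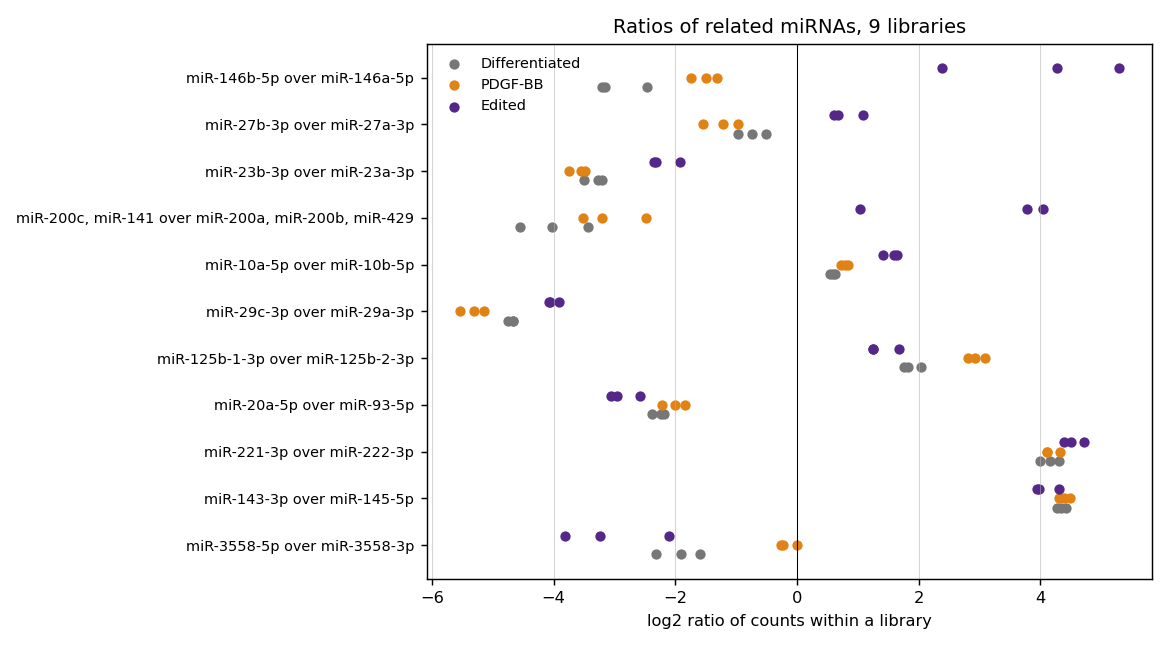
Points give the log2 ratio of deposited counts of related miRNAs within each of the 9 libraries, coloured by group. Edited libraries lie to the right of PDGF-BB libraries for miR-146b-5p over miR-146a-5p, for miR-27b-3p over miR-27a-3p and for miR-200c, miR-141 over miR-200a, miR-200b, miR-429, and to the left for miR-125b-1-3p over miR-125b-2-3p and miR-3558-5p over miR-3558-3p. The pairs were chosen after their values were seen and were not tested.

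Other families held members with different changes. In the miR-29 family, which targets collagens and elastin, miR-29c-3p rose from 832, 710.3 and 530.3 to 1194, 1554 and 1611 CPM (1.07 ± 0.18, adjusted p = 6.4e-04). The far more abundant miR-29a-3p, at 29333, 28217 and 24643 CPM with PDGF-BB and 20122, 23423 and 26714 CPM with editing, did not pass (−0.23 ± 0.12). Nor did miR-29b-3p, at 9119, 8393 and 6774 CPM with PDGF-BB and 4642, 6605 and 8344 CPM with editing (−0.31 ± 0.20). miR-29c-3p differs from miR-29a-3p by 1 of 22 bases and shares its seed. Of 6 tested arms 3 rose and 1 fell, miR-29a-5p (−0.59 ± 0.14), a call lost with library totals (−0.27).

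From the Hox clusters, miR-10a-5p rose from 4408, 5381 and 5326 to 7719.7, 8033 and 8003 CPM (0.65 ± 0.10) while miR-10b-5p, at 2657, 3007 and 3082 CPM with PDGF-BB and 2890.4, 2659 and 2568 CPM with editing, did not pass (−0.11 ± 0.096), and their ratio within libraries went from 1.66, 1.79 and 1.73 to 2.67, 3.02 and 3.12. miR-10a-3p rose (0.66 ± 0.17), and the other 2 tested arms of the list did not pass. The list's median of −0.051 turned to 0.26 with library totals, and 1 arm fell without edited replicate 1.

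miR-125b-5p, the most abundant miRNA over the 6 compared libraries, is made from a pair of hairpins whose 3p arms differ. Of 11 tested arms of miR-99, miR-100 and miR-125, 8 fell and 0 rose, and 4 fell and 1 rose with library totals. miR-125b-5p fell from 158991, 148543 and 129814 to 85495, 61153 and 79027 CPM (−0.95 ± 0.13, adjusted p = 2.3e-04). miR-125b-1-3p fell from 364, 388 and 401 to 154, 118 and 100.4 CPM (−1.64 ± 0.15), whereas miR-125b-2-3p, at 42.6, 55.6 and 52.8 CPM with PDGF-BB and 48.2, 49.5 and 42.1 CPM with editing, did not pass (−0.12 ± 0.14). The ratio of these 3p arms was 8.55, 6.99 and 7.598 in PDGF-BB and 3.19, 2.38 and 2.39 in edited libraries.

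Relatives that share chromosomes with these hairpins were also measured. miR-100-5p, on chromosome 8 of GRCr8 like the miR-125b-1 hairpin, fell from 1065, 1102 and 1062 to 746, 609.6 and 579.9 CPM (−0.74 ± 0.11). miR-99a-5p, whose 3p partner lies on chromosome 11 like the miR-125b-2 hairpin, did not pass (0.17 ± 0.13). In the cluster of miR-99b, let-7e and miR-125a at chr1:67350070-67350748 on the plus strand 5 of 6 arms fell, among them miR-99b-3p (−1.05 ± 0.11) and miR-125a-5p (−0.40 ± 0.073). The falls of miR-125a-3p, miR-99b-5p and let-7e-3p were −0.73 ± 0.14, −0.53 ± 0.10 and −0.60 ± 0.19. With library totals miR-125a-5p (−0.081), miR-125a-3p (−0.40), miR-99b-5p (−0.21) and let-7e-3p (−0.29) did not pass.

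miR-322 and miR-503, relatives of miR-15 and miR-16 that target cyclins, lead a cluster on the X chromosome at chrX:137720952-137726219 on the minus strand of GRCr8. It had 10 of 12 tested arms higher in edited cells, with a median of 1.07. Without PDGF-BB replicate 2 the count was 5, and without edited replicate 2 it was also 5. The rises lost in both cases were those of miR-351-3p, miR-450b-3p, miR-503-5p, miR-542-3p and miR-542-5p. miR-322-5p was at 2747, 2965 and 3245 CPM in PDGF-BB and 3595, 10595 and 9631 CPM in edited cells (1.41 ± 0.33, adjusted p = 0.00479). Edited replicate 1 lies just above the highest PDGF-BB library, and edited replicates 2 and 3 at about 3 times that library. miR-503-5p in edited replicate 1 was below all PDGF-BB libraries, at 332, 1214 and 1042 against 397, 388 and 425 CPM, and its change of 1.10 ± 0.38 (adjusted p = 0.0297) was lost on leaving out any PDGF-BB library, edited replicate 2 or edited replicate 3.

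Over the neighbouring arms of that cluster, changes ran from 0.57 ± 0.32 for miR-351-5p, which did not pass, to 1.44 ± 0.44 for miR-351-3p, a call lost without PDGF-BB replicate 1 or 2 or edited replicate 2, and edited replicate 1 was the lowest edited library for each of the 12. Another group of X-linked hairpins, at chrX:17919195-17930716 on the plus strand, held 6 tested arms, of which 4 rose. Its most abundant member miR-532-5p, which was singled out after its values were seen, was at 274, 286 and 314 CPM in PDGF-BB and 461, 616 and 685 CPM in edited cells (1.01 ± 0.15).

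The family of miR-15, miR-16, miR-195 and miR-497 is linked to restraint of the cell cycle. In it 3 of 8 arms rose, beside 28.0% of all tested miRNAs, and the rest did not pass. Those that rose were miR-15a-5p, from 270.4, 284 and 247 to 480.4, 469.6 and 513 CPM (0.87 ± 0.10), miR-195-5p (0.87 ± 0.23) and miR-497-5p (0.94 ± 0.24). The dominant miR-16-5p, at 55519, 56289 and 55375 CPM with PDGF-BB and 71639, 47782 and 60099 CPM with editing, did not pass (0.10 ± 0.13), and its groups overlap. With library totals 7 of the 8 arms rose.

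The miR-17/92 cluster, which Myc activates in proliferating cells, had 7 of 8 tested arms lower in edited cells, and no arm of the related miR-106b/25 cluster passed. The difference between the clusters was not tested. miR-20a-5p fell from 1056, 1217 and 1565 to 846, 594 and 549 CPM (−0.95 ± 0.20), miR-92a-3p from 496, 608 and 764 to 339.6, 222.2 and 177 CPM (−1.34 ± 0.24, adjusted p = 0.00122) and miR-17-5p as well (−0.90 ± 0.15). miR-18a-5p also fell (−1.06 ± 0.18). The falls of miR-19b-3p (−0.49 ± 0.13) and miR-19a-3p (−0.52 ± 0.16) did not pass with library totals (−0.18 and −0.21) or without edited replicate 2, nor did miR-19a-3p without PDGF-BB replicate 3 or edited replicate 3. In the miR-106b/25 cluster 0 of 6 tested arms passed, with miR-93-5p at 4887, 4910.2 and 5605 CPM with PDGF-BB and 5079, 4609 and 4552 CPM with editing (−0.11 ± 0.098) and a change of 0.081 ± 0.096 for miR-25-3p. With library totals its 6 arms had values above 0, and 1 of them, miR-25-3p (0.39), rose. miR-20a-5p over miR-93-5p, which share a seed, was 0.216, 0.248 and 0.279 in PDGF-BB and 0.167, 0.129 and 0.121 in edited libraries.

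Several families had few calls or small changes. Of 20 tested arms of let-7 and miR-98, which promote differentiation, 1 rose (let-7a-1-3p, 0.33 ± 0.11) and 1 fell (let-7e-3p, −0.60 ± 0.19), and the median of −0.11 turned to 0.20 with library totals, where 7 rose. The rise was lost without PDGF-BB replicate 2, PDGF-BB replicate 3 or edited replicate 3, and the fall with library totals or without PDGF-BB replicate 3 or edited replicate 2. The 9 strands with the let-7 seed did not pass. let-7c-5p was at 63747, 64323 and 62609 CPM in PDGF-BB and 68361, 48881 and 64198 in edited cells (−0.072 ± 0.11), and the values were 0.077 ± 0.089 for let-7b-5p, −0.080 ± 0.094 for let-7f-5p, −0.17 ± 0.13 for let-7a-5p and −0.18 ± 0.076 for let-7i-5p.

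Among arms of miR-30, 6 of 11 rose and 0 fell, with a median of 0.30, and with library totals 10 rose, with a median of 0.62. Examples are miR-30b-5p, from 431, 385 and 369.7 to 484, 674 and 672 CPM (0.63 ± 0.15), and miR-30c-5p (0.45 ± 0.091). Among miR-26 and miR-101, which target Ezh2, 2 of 7 tested arms rose, near the 28.0% of all tested miRNAs. They were miR-26a-5p (0.45 ± 0.11) and miR-26a-3p (0.82 ± 0.27), the latter not without PDGF-BB replicate 1 or 3 or edited replicate 3. miR-101a-3p did not pass (0.060 ± 0.13), but rose with library totals (0.39), where 5 of the 7 arms rose. In the miR-181 family, with 1 rise and 2 falls among 8 arms, the median of −0.10 turned to 0.21 with library totals. No arm passed without PDGF-BB replicate 2 or without edited replicate 2. The rise was that of miR-181a-5p (0.41 ± 0.14), also lost without PDGF-BB replicate 3. The fall of miR-181a-2-3p (−0.93 ± 0.28) was also lost with library totals (−0.61), after thinning and without PDGF-BB replicate 1 or edited replicate 3. The fall of miR-181b-5p (−0.29 ± 0.11, adjusted p = 0.0381) was lost whichever of the 9 libraries was left out, and with library totals its value was 0.030.

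The 4 tested arms of miR-199a and miR-214, mesenchymal miRNAs of a shared transcript, all rose. miR-199a-3p was at 21049, 20252 and 22834 CPM in PDGF-BB and 33225, 43994 and 45043 CPM in edited cells (0.93 ± 0.13, adjusted p = 2.3e-04), miR-199a-5p changed by 0.92 ± 0.15 and miR-214-3p by 1.08 ± 0.19. In the family of miR-130 and miR-301, 2 of 5 tested arms fell, beside 30.9% of all tested miRNAs. miR-130a-3p fell from 3939.9, 3493 and 2891 to 2060.1, 1764 and 1745 CPM (−0.89 ± 0.13), and so did miR-130b-3p (−0.87 ± 0.27). The latter did not pass with library totals (−0.55) or without PDGF-BB replicate 1 or edited replicate 2 or 3. Of 7 tested arms of miR-34 and miR-449, 0 rose and 3 fell, although the median lies above 0 at 0.39, and 3 rose and 1 fell with library totals. Over the other alternatives 0 to 2 rose and 1 to 3 fell. miR-34a-5p, which p53 activates, fell (−0.41 ± 0.12), but did not pass with library totals (−0.084) or without differentiated replicate 3, PDGF-BB replicate 1, PDGF-BB replicate 2, edited replicate 1 or edited replicate 3. miR-34c-5p, at 2658, 1699 and 1529 CPM with PDGF-BB and 2982, 2718 and 2080.1 CPM with editing, did not pass (0.40 ± 0.28).

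**Figure D4:**
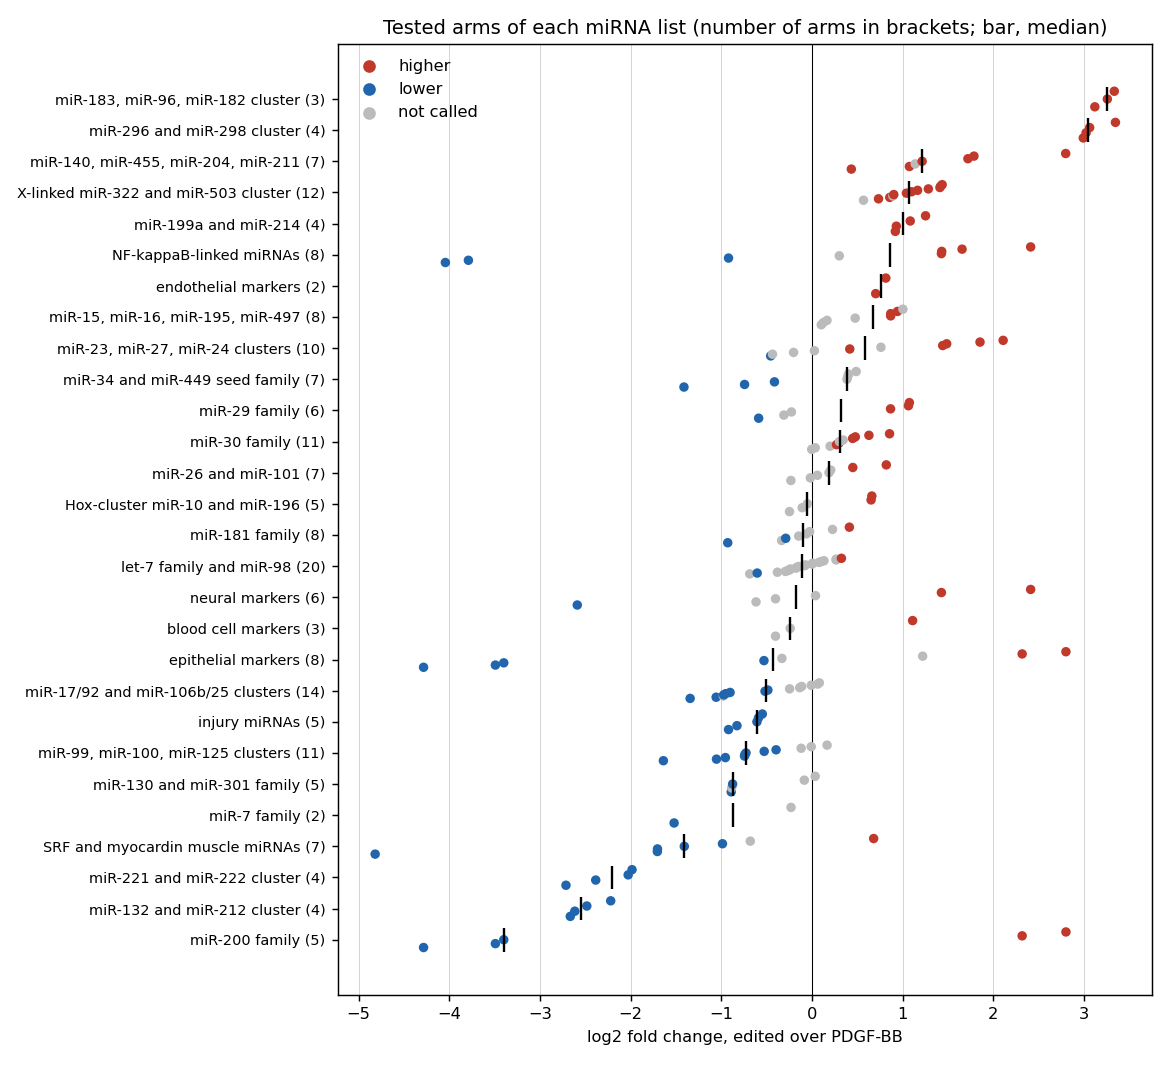
Each point is 1 tested arm, placed by its log2 fold change of edited over PDGF-BB cells in the row of its list, with the number of tested arms in brackets and the median as a bar. The rows run from the miR-200 family, whose points lie at both ends, to the clusters of miR-296 and miR-298 and of miR-183, miR-96 and miR-182 at medians of 3.04 and 3.26. Red points rose, blue points fell and grey points did not pass.

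The 12 most abundant miRNAs moved in both directions. In rank order they are miR-125b-5p, miR-21-5p, miR-143-3p, let-7c-5p, miR-16-5p, let-7b-5p, let-7f-5p, miR-31a-5p, let-7a-5p, miR-199a-3p, miR-29a-3p and let-7i-5p. Of these miR-125b-5p, miR-21-5p, miR-143-3p and miR-31a-5p fell, miR-199a-3p rose and 7 did not pass. In the share of all counts miR-125b-5p took 13.4% to 14.5% with PDGF-BB and 7.87% to 9.81% with editing, and miR-199a-3p 1.90% to 2.35% and 3.81% to 5.66%. let-7c-5p, which did not pass on the TMM scale, took 5.82% to 6.44% with PDGF-BB and 6.29% to 7.84% with editing.

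Outside the lists 24 of 113 tested miRNAs rose and 42 fell. The 4 described next were singled out after their values were seen. miR-152-3p and miR-148a-3p share a seed and target the DNA methyltransferase Dnmt1. miR-152-3p rose from 8585, 8169 and 8965 to 11314, 13526 and 14049 CPM (0.60 ± 0.11, adjusted p = 0.00132) and miR-148a-3p from 2714, 2436 and 2284 to 3773, 3748 and 3371 CPM (0.55 ± 0.096). miR-149-5p rose from 50.3, 57.2 and 98.3 to 117, 271 and 219 CPM (1.55 ± 0.35). miR-103-3p, hosted in a pantothenate kinase gene, fell from 6597, 6759.8 and 6073 to 4947, 4410.0 and 4001 CPM (−0.54 ± 0.10), but did not pass with library totals (−0.22).

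The remaining miRNAs among the 15 largest falls were of low abundance and belong to no family above. miR-672-5p was at 5.53, 14.5 and 11.98 CPM in PDGF-BB and 1.11, 0.614 and 0.236 in edited cells (−4.21 ± 0.49, adjusted p = 9.9e-05), and miR-216a-5p, known from the pancreas, had 9, 11 and 8 counts with PDGF-BB and 3, 2 and 0 with editing (−4.05 ± 0.80) and fell under the filter after thinning and with the 6 compared libraries alone. miR-760-3p fell from 17.7, 25.8 and 19.1 to 3.87, 3.95 and 2.95 CPM (−2.53 ± 0.27) and miR-326-3p from 11.6, 11.3 and 14.2 to 3.87, 2.11 and 1.18 CPM (−2.51 ± 0.41). Of 113 tested miRNAs in no list, miR-218a-5p, hosted in the Slit genes, had the smallest adjusted p, with 1586, 1562 and 1788 CPM in PDGF-BB and 757, 789 and 861 in edited cells (−1.04 ± 0.098, adjusted p = 2.7e-05), and was singled out after its values were seen.

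Features that the choice of libraries did not use were described without a test. A RefSeq mature sequence was matched for 276 of the 304 tested miRNAs. Only arms that the table assigns to a single locus were paired, and both arms were tested for 83 such hairpins. The changes of the 5p and 3p arms had a Pearson r of 0.92 and a Spearman rho of 0.90 across the 83 hairpins. All share the libraries, and the arms of a pair share the precursor as assigned. The assignment puts miR-125b-5p with miR-125b-2-3p, although miR-125b-5p is not made from that hairpin alone. The median absolute difference between the arms was 0.22. Both arms passed for 42 hairpins, in the same direction for 41. miR-181a-5p, which has several loci, was left out. It rose (0.41 ± 0.14) while miR-181a-2-3p fell (−0.93 ± 0.28), so the miR-181a-2 hairpin would add an opposite pair. Both of these calls were lost in some of the fits without 1 library.

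The exception among the paired hairpins was that of miR-3558, whose 5p arm fell (−2.12 ± 0.34) and whose 3p arm rose (0.82 ± 0.31, adjusted p = 0.0424). The rise was lost without any 1 of the PDGF-BB libraries, edited replicate 2 or edited replicate 3 and after thinning, where the 5p arm was under the filter. Its counts are small, with 10, 11 and 23 for the 5p arm and 12, 11 and 27 for the 3p arm in PDGF-BB libraries. In edited libraries the 5p arm had 7, 17 and 8 counts and the 3p arm 30, 160 and 112. In differentiated libraries the 5p arm had 1, 4 and 1 counts and the 3p arm 5, 15 and 3.

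**Figure D5:**
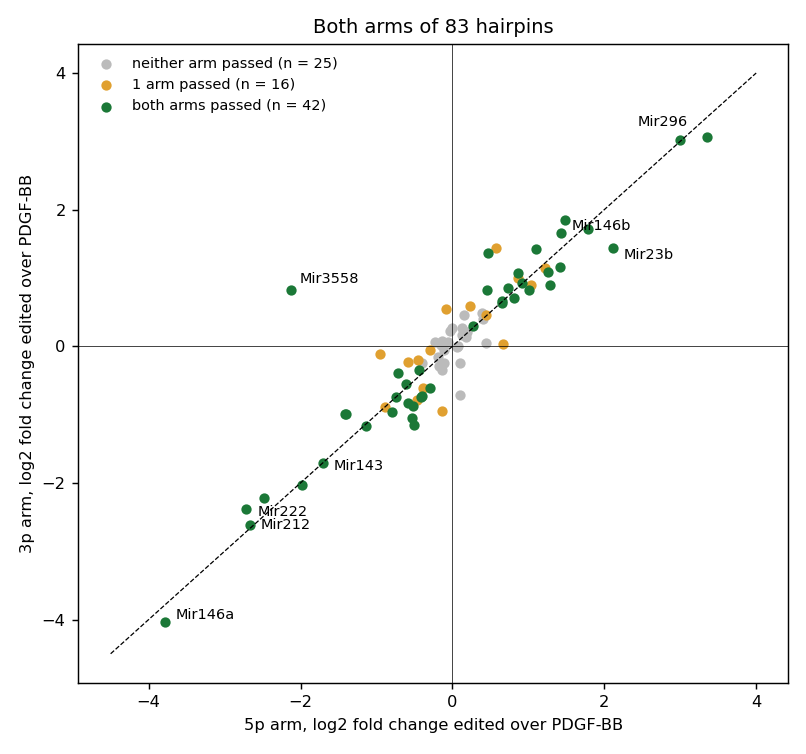
Each point is 1 of 83 hairpins, with the log2 fold change of edited over PDGF-BB cells of its 5p arm on the horizontal and of its 3p arm on the vertical axis, and the dashed line marks equal change. Green points (42) have both arms past the threshold, and all of them except Mir3558 lie in the lower left or upper right part of the plot.

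Hairpins within 10000 bases of each other on a strand of GRCr8 formed 27 clusters with at least 2 tested hairpins. Only arms with a single locus were counted. Among these, calls ran in 1 direction only in 21 clusters, no cluster held both a rise and a fall, and 6 had no call. The arms left out include miR-24-3p (0.42 ± 0.097) and miR-181a-5p (0.41 ± 0.14), which rose. With them the clusters that hold the falls of miR-27a-5p and miR-181b-5p would be mixed, so the absence of mixed clusters depends on this rule. Of 34 seeds carried by 2 or more tested miRNAs, 3 had both a rise and a fall, those of miR-146a-5p with miR-146b-5p, of the miR-181 family and of the miR-30 family with miR-384-5p. That of the miR-181 family rests on the fall of miR-181b-5p, which was lost in each of the 9 fits without 1 library. Mixed calls in clusters and in seeds were not compared by a test. The miR-200 family would add to these, but RefSeq sequences were not matched for miR-200a-3p, miR-200b-3p and miR-429. The GC content of the mature strand had a median of 45.5% among rises, 48.9% among falls and 45.5% among miRNAs that did not pass, and its Pearson r with the change was −0.041 across 276 miRNAs.

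Markers of other cell types were counted in both groups. The smooth muscle markers miR-143 and miR-145 were the abundant muscle miRNAs of all 6 libraries, although lower in edited cells. The endothelial miR-126a arms summed to 1791, 1895 and 1879.9 CPM in PDGF-BB and 2905, 3346 and 2957 CPM in edited cells, and both tested arms rose (0.70 ± 0.11 and 0.81 ± 0.12). Blood cell markers summed to 65.8, 56.8 and 49.3 CPM with PDGF-BB and 76.9, 98.7 and 92.9 CPM with editing, led in edited cells by miR-150-5p (1.11 ± 0.27), the 1 of 3 tested arms that passed. The erythroid miR-451-5p and the myeloid miR-223-3p had at most 2 counts in any of the 6 libraries. The median of the blood list, −0.24, turned to 0.071 with library totals. Epithelial markers summed to 471, 498 and 426 CPM with PDGF-BB and 301, 381 and 352 CPM with editing, mostly miR-192-5p and miR-194-5p, with 2 rises and 4 falls among 8 tested arms. The fall of miR-192-5p (−0.53 ± 0.14) was lost with library totals (−0.21). Both arms of miR-375 were at 0 in all 6 libraries.

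Neural markers summed to 803, 872 and 864 CPM with PDGF-BB and 857, 1055 and 991 CPM with editing, mostly miR-128-3p (0.039 ± 0.12, not past the threshold). Of 6 tested arms 2 rose and 1 fell, the median of −0.18 turned to 0.14 with library totals, and the neuronal miR-124 was at 0 in all 6 libraries. The liver marker miR-122-5p stood at 4.98, 4.03 and 4.63 CPM with PDGF-BB and 7.47, 5.04 and 1.18 CPM with editing and did not pass (−0.079 ± 0.56). The part of other cell types in the changes of miR-126a, miR-150, miR-9a and the miR-200 family was not tested. The imprinted Dlk1-Dio3 cluster, a large cluster of placental mammals, summed to 42.03, 22.6 and 41.7 CPM in PDGF-BB and 16.9, 3.54 and 4.96 CPM in edited cells over 37 arms with a count. In differentiated cells the cluster summed to 9.27, 9.68 and 10.3 CPM, inside the range of the edited libraries. Its 1 tested arm, miR-379-5p, fell from 9.402, 4.03 and 5.72 to 2.49, 0.545 and 1.06 CPM (−2.48 ± 0.55, adjusted p = 0.00399) and was under the filter after thinning.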

How the data were processed

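Total RNA was made into QIAseq small RNA libraries and sequenced as single reads of 75 bases, per the labels' protocols. The authors deposited whole-number counts for each mature rat miRNA, not normalized. They were made on genome build Rnor_6.0, per the submitters' processing notes, with an aligner and counter, and with or without molecular identifiers, that are not stated.

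Counts of all 9 libraries, grouped by title, were fitted by the quasi-likelihood functions of edgeR 4.0.16 in R 4.3.3, with one coefficient for each group and TMM factors. The filter was filterByExpr (minimum count 10), which kept 304 of 502 miRNAs with a count. SE is the absolute log2 fold change over the square root of F. Benjamini-Hochberg adjustment ran over the 304, the threshold was 0.05, and the script was tested on simulated data. Alternatives were library totals, RLE factors, DESeq2 1.42.0, no filter, 2 groups only, a replicate block, thinning to the smallest total and leaving out each library. A floor of 3 counts is 0.817 to 1.66 CPM in PDGF-BB and 0.205 to 0.830 CPM in edited libraries, for counting error only.

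Members and lists were chosen with earlier results of these data known. Named miRNAs are the 15 largest rises and falls that passed without overlap, the 12 most abundant and arms of the lists, except where stated. Sequences are from RefSeq (GRCr8).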

Additional observations from a re-analysis of the deposited data

How the results depend on the processing

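Beside 179 calls, 85 higher and 94 lower, the alternatives gave 150 (thinning to equal depth, 281 tested) to 194 (no filter, 502 tested). Library totals gave 52 falls. DESeq2 gave 178 calls, RLE factors 176 and the 6 compared libraries alone 169. Leaving out 1 library gave 145 to 198. PDGF-BB against differentiated cells gave 31 calls, 48 with DESeq2 and 3 to 53 on leaving out 1 library, lowest without differentiated replicate 3 and highest without edited replicate 1. No call became a call in the other direction in the 16 alternatives, 122 of the 179 were kept in all 9 fits without 1 library and 102 in all 16 alternatives.

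A replicate block gave 181 calls. Correlations of same-numbered PDGF-BB and edited libraries, after subtraction of group means, were 0.23, 0.0070 and 0.29. Those of differently numbered ones ran from −0.27 to 0.14, the highest between edited replicate 2 and PDGF-BB replicate 3. With 3 libraries in each group these values cannot decide whether the numbers pair libraries. The block kept 176 of the 179 calls. The rises of miR-3558-3p (adjusted p = 0.0505) and miR-542-5p (adjusted p = 0.0765) did not pass with it, and the third was outside the named miRNAs. The rise of miR-542-5p was also lost with the 6 compared libraries alone.

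Of the miRNAs named, those that turned sign did not pass with TMM factors, except miR-181b-5p. With library totals the sign turned for let-7a-5p (0.14), let-7c-5p (0.23), let-7f-5p (0.23), let-7i-5p (0.14), miR-10b-5p (0.20), miR-122-5p (0.25), miR-125b-2-3p (0.20), miR-181b-5p (0.030), miR-27a-3p (0.12), miR-29a-3p (0.096), miR-29b-3p (0.017) and miR-93-5p (0.20). Without a filter the sign turned for let-7c-5p (0.038), let-7f-5p (0.031), miR-10b-5p (0.00722), miR-122-5p (0.049), miR-125b-2-3p (0.000379) and miR-93-5p (0.000709). With DESeq2 the sign turned for miR-122-5p (0.00100). After thinning the sign turned for miR-122-5p (0.18). Leaving out 1 library, the values that cross 0 ran from −0.22 to 0.061 for let-7a-5p, −0.10 to 0.14 for let-7c-5p, −0.11 to 0.095 for let-7f-5p, −0.064 to 0.17 for miR-101a-3p, −0.38 to 0.44 for miR-122-5p, −0.086 to 0.66 for miR-147, −1.59 to 0.43 for miR-206-3p and −0.032 to 0.14 for miR-23a-3p. The cause was not tested. At the depth of PDGF-BB replicate 1 a miRNA with 3 counts stands at 1.66 CPM, which limits the rises of miR-200c-3p, miR-211-5p and miR-298-3p. The falls of miR-1-3p and miR-216a-5p are limited by the edited libraries, where 3 counts stand at 0.205 to 0.830 CPM.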
